A study of Mus musculus with 8 samples.

Results

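In mouse colon epithelial cells 10 genes of the cyclooxygenase and eicosanoid pathway were followed: Pla2g4a, Ptgs1, Ptgs2, Ptges, Ptgis, Hpgds, Hpgd, Ptger4, Alox5 and Alox5ap. They were chosen by name, with earlier results of these data known. Each was read from the row that carried its symbol in the platform annotation. Of these 10 genes, 9 had a row, 1 row each, among the 19505 genes of the array. No row carried the symbol Ptgs1, so this gene was not analysed here. Of the 9, 8 passed the filter on low signal and were tested among 13003 genes. Alox5 fell below the filter and is given by its values with no test.

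The samples came from C57BL/6J mice of 4 groups, with 2 arrays in each: SMS2 knockout (KO) mice given dextran sulfate sodium (DSS), wild-type (WT) mice given DSS, untreated KO mice and untreated WT mice. DSS, a polymer that injures the colon lining, was given at 3.5% in drinking water for 2 days. SMS2, encoded by Sgms2, makes sphingomyelin from ceramide. The labels call the 2 arrays of a group biological replicates. The part of Sgms2 that was deleted, the cells that lack it, the age of the mice and the number of mice behind an array are not stated in the labels.

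Eicosanoids are short-lived lipid signals made from arachidonic acid. A phospholipase A2 cuts arachidonic acid from membrane phospholipids, the cyclooxygenases Ptgs1 and Ptgs2 convert it to a common prostaglandin precursor, and separate synthases turn that precursor into prostaglandin E2, prostaglandin D2 or prostacyclin. Lipoxygenases open the other branch, which leads to leukotrienes. In the intestine prostaglandin E2 is known for its part in epithelial repair after injury, and the colon epithelium itself breaks prostaglandins down.

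Signals are log2 values as deposited. The level of the negative controls, taken as the 75th percentile of 5222 control rows, lay between 6.00 and 6.24 on the 8 arrays and is called background here. Differences are log2 with their standard error (SE) from limma, p-values are limma's adjusted by Benjamini-Hochberg over all 13003 genes, and a gene is said to rise or fall where the adjusted p was under 0.05. Group means are given ± SD (n = 2). The number of arrays limits the precision, and p-values measure only the spread between these samples.

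All 12 epithelial markers, among them Epcam, Cdh1 and Vil1, lay above background on every array. Some markers of other cell types were bright too. Vil1 lay between 13.40 and 13.93, the fibroblast gene Dcn between 11.38 and 16.95, and the smooth muscle gene Acta2 between 14.04 and 16.67. The epithelial markers thus do not show how pure the epithelium was. Sgms2 lay between 6.47 and 7.35 on the 4 KO arrays, against 10.76 to 11.27 on the 4 WT arrays, which checks the genotype labels. The treatment coincided with another difference. The Y-linked genes Eif2s3y, Uty and Kdm5d had a mean between 8.99 and 9.95 on the 4 DSS arrays. Their mean was 3.75 to 3.90 on the 4 untreated arrays, where each lay under background. DSS and a difference in the sex of the mice therefore cannot be told apart in any comparison of treatments, for any gene. Exocrine pancreas transcripts stood out on 2 DSS arrays, with a mean over 7 genes of 7.78 on KO DSS replicate 1 and 12.3 on WT DSS replicate 1, against 5.81 to 6.30 on the other arrays. Of the 7 genes, Cela1 was bright on every array, between 12.13 and 15.83. On KO DSS replicate 1, Cela2a (5.62) and Cel (4.73) lay under background.

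In WT mice, DSS went with higher transcripts of 2 consecutive enzymes of prostaglandin E2 synthesis, the inducible cyclooxygenase Ptgs2 and the microsomal prostaglandin E synthase Ptges. Of the 8 tested genes of the pathway, 2 rose and none fell, where 2.91% of all tested genes rose and 1.12% fell. The other 6 did not pass, and 4 of the 8 had an unadjusted p under 0.05, against 15.4% of all tested genes. In 5 of the 8 genes both DSS arrays lay above both untreated arrays, and in 1 they lay below, against 20.3% and 24.1% of all tested genes.

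**Figure D1:**
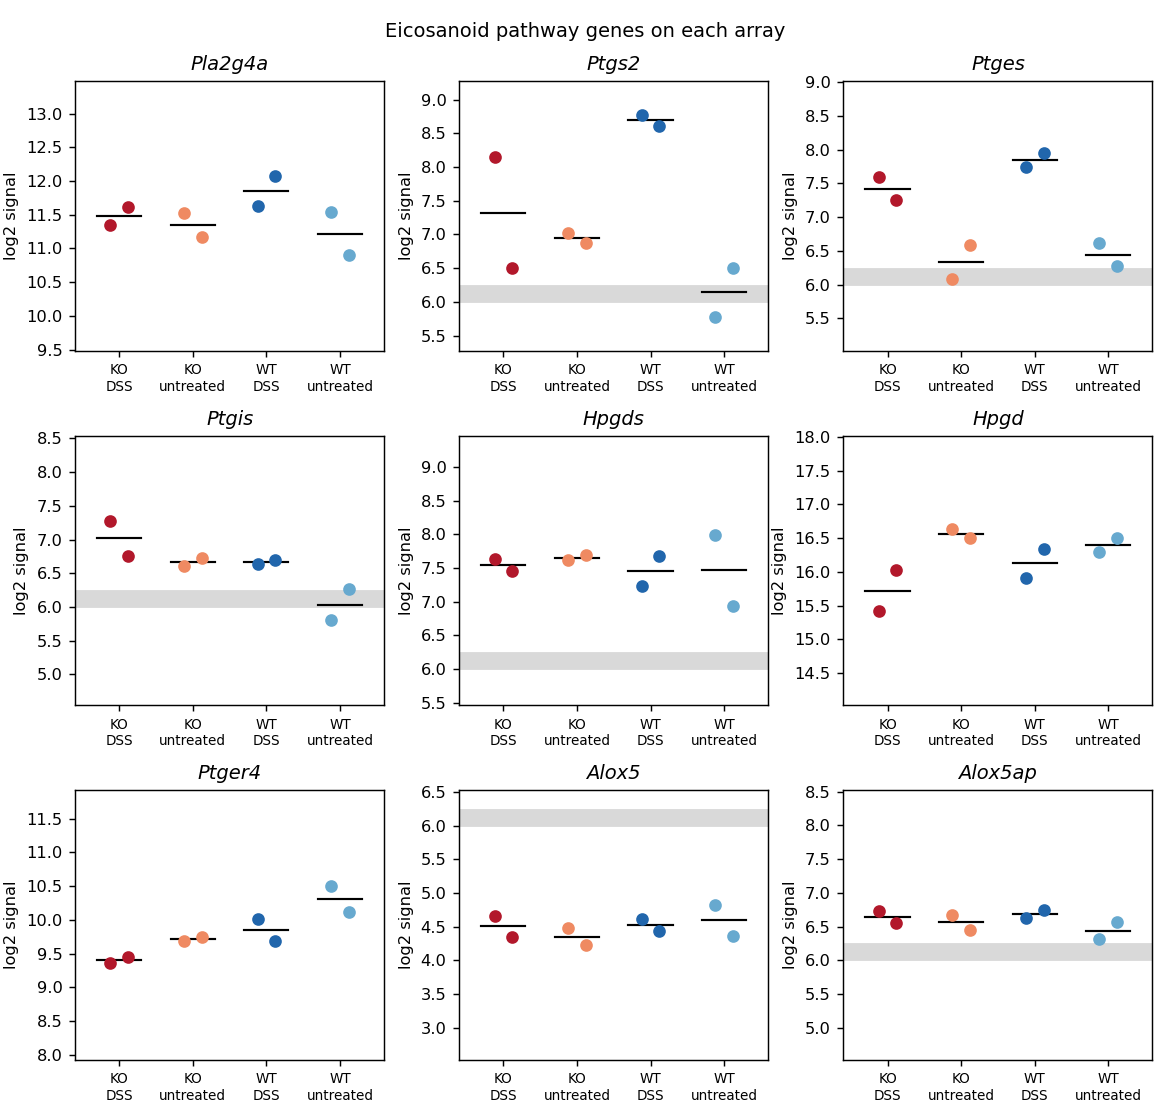
Log2 signal of the 9 measured genes (vertical axis, each panel spanning 4 log2 units) on the 8 arrays, by group. Points are arrays, black lines are group means and the grey band is the range of background over the arrays. Ptgs2 and Ptges lie highest on the WT DSS arrays, the Ptgs2 points of KO DSS mice lie far apart at 8.14 and 6.50, and Alox5 lies under the band on every array.

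Ptgs2, the cyclooxygenase that cells switch on after injury or cytokine signals, had signals of 8.77 and 8.61 on the WT DSS arrays, against 5.78 and 6.51 on the WT untreated arrays. Both DSS arrays lay more than 2 log2 units above the brighter untreated array, and the dimmer untreated array was under background. The difference was 2.55 ± 0.44 (SE), which is 5.85-fold, with an adjusted p of 0.00633. The call was lost without WT untreated replicate 1 (difference 2.18, adjusted p = 0.0836), and over the 17 alternatives the adjusted p ranged from 0.000297 to 0.0836.

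Ptges, the synthase that turns the cyclooxygenase product into prostaglandin E2, had signals of 7.75 and 7.96 on the WT DSS arrays, against 6.61 and 6.28 on the WT untreated arrays. The groups did not overlap, and all 4 arrays lay above background. Its difference was 1.41 ± 0.26 (SE), or 2.65-fold, with an adjusted p of 0.0103. The call was lost without WT untreated replicate 2 (adjusted p = 0.121) and without WT DSS replicate 2 (adjusted p = 0.0769), and the adjusted p ranged from 0.0077 to 0.121 over 17 alternatives.

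Because these 2 genes alone among the 8 rose with DSS, the sequence around their annotated starts is shown, from RefSeq on the GRCm38.p6 build (250 bases before and 50 after the start, 5′ to 3′ on the gene's strand). The Ptgs2 window is chr1:150099781-150100080 on the plus strand and the Ptges window is chr2:30903248-30903547 on the minus strand. Capitals mark every match, on either strand, to 7 motifs that were searched.
Ptgs2: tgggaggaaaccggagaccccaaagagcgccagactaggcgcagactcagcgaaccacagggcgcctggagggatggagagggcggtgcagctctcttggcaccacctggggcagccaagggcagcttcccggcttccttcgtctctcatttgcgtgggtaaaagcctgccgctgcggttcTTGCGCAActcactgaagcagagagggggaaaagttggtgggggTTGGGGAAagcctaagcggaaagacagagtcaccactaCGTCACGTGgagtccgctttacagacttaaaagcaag
Ptges: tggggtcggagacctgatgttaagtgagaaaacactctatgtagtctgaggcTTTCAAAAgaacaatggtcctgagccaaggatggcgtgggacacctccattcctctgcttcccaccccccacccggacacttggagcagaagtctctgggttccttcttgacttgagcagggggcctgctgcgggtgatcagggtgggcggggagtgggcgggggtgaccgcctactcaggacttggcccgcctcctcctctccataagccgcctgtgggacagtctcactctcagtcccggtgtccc

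Counted from 1 at the 5′ end of its window, Ptgs2 held TGACG, the short form of the cAMP response element, on the minus strand at position 264. It held the E-box CACGTG at position 267, and these overlap. Both lay after the annotated start, at distances of 13 and 16 bases. Ptgs2 also held TTNCNNAA, a loose form of the C/EBP site, at positions 182 and 226. Ptges held only TTNCNNAA among these motifs, at position 53. Of 32851 promoter windows in the RefSeq table, 20.8% held TGACG, 7.15% held CACGTG and 40.7% held TTNCNNAA. Neither window held the TATA box TATAAA (13.6% of windows), the full cAMP response element TGACGTCA (1.79%), or the NF-kB site in a strict form (0.155%) or a loose one (4.79%). Windows were at hand for 8 of the 10 genes, 9 windows in all, and CACGTG and TGACG each occurred in 1 gene of these 8, Ptgs2. TTNCNNAA occurred in 5 of the 8, with Hpgd, Hpgds and Pla2g4a, which did not rise, besides Ptgs2 and Ptges. TATAAA occurred in 2, Hpgd and Pla2g4a. A match here describes letters and not a bound site, and sequence outside the windows was not searched.

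In KO mice, DSS moved none of the 8 tested genes past the threshold, where 0.931% of all tested genes passed. Both KO DSS arrays lay above both KO untreated arrays in 2 of the 8 genes, Ptges and Ptgis, and below them in 2, Hpgd and Ptger4, against 16.8% and 22.0% of all tested genes. The unadjusted p was under 0.05 for 2 of the 8, Ptges and Hpgd, against 9.52% of all tested genes.

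The Ptgs2 signals of KO mice were 8.14 and 6.50 on the DSS arrays, against 7.03 and 6.88 on the untreated arrays. The 2 DSS arrays fell on either side of the untreated ones, 1.64 log2 units apart, where the median distance between the 2 arrays of this group was 0.30 over the 8 genes. In the other 3 groups the widest distance between replicate arrays for any of the 8 genes was 1.06. The difference was 0.37 ± 0.44 (SE, adjusted p = 0.875), with a 95% confidence interval from -0.59 to 1.33. It was -0.45 without KO DSS replicate 1 and 1.19 without KO DSS replicate 2, neither past the threshold.

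For Ptges the KO DSS arrays had 7.59 and 7.26, against 6.08 and 6.59 on the KO untreated arrays. The groups did not overlap, and 1 of the untreated arrays was under background. The difference of 1.09 ± 0.26 (SE) had an adjusted p of 0.1004 and a 95% confidence interval from 0.52 to 1.66. Its DSS difference was 0.32 smaller in KO than in WT (interaction -0.32 ± 0.37 SE, adjusted p = 0.998), with an interval from -1.13 to 0.50. Averaged over genotypes, Ptgs2 rose by 1.46 ± 0.31 (adjusted p = 0.0173) and Ptges by 1.25 ± 0.18 (adjusted p = 0.00191), the 2 that rose of 8, where 3.47% of all tested genes rose and 2.05% fell. The unadjusted p was under 0.05 for 5 of 8, against 17.6% of all tested genes. The averaged Ptgs2 call was lost without WT untreated replicate 1, WT DSS replicate 1 or KO untreated replicate 2 (adjusted p = 0.0842, 0.0533 and 0.0595), while Ptges kept its call in all 16 alternatives, with an adjusted p of at most 0.0140.

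Between the genotypes under DSS, Ptgs2 averaged 7.32 ± 1.16 in KO mice and 8.69 ± 0.11 in WT mice. Both KO arrays, at 8.14 and 6.50, lay under both WT arrays. The difference was -1.37 ± 0.44 (SE) with an unadjusted p of 0.00917 and an adjusted p of 0.318. None of the 8 tested genes passed in this comparison, where 0.354% of all tested genes did, and both KO arrays lay under both WT arrays in 4 of 8 genes (Ptgs2, Ptges, Pla2g4a and Ptger4) and above them in 1 (Ptgis), against 18.8% and 16.1% of all tested genes. Ptgs2 was the 1 gene of 8 with an unadjusted p under 0.05, against 10.2% of all tested genes. Without KO DSS replicate 1 the Ptgs2 difference was -2.19 (adjusted p = 0.0292), and without KO DSS replicate 2 it was -0.55 and did not pass. Over 17 alternatives the adjusted p ranged from 0.0292 to 0.630.

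Without DSS the order was the other way round, with Ptgs2 at 7.03 and 6.88 in KO mice, against 5.78 and 6.51 in WT mice. The groups did not overlap and the difference was 0.81 ± 0.44 (SE, adjusted p = 0.918), so it did not pass. None of the 8 genes passed between the untreated groups, where 0.392% of all tested genes did, and 2 of 8 (Ptgis and Ptger4) had an unadjusted p under 0.05, against 6.32%. Both KO arrays lay above both WT arrays in 3 of the 8 (Ptgs2, Ptgis and Hpgd) and below them in 1 (Ptger4), against 17.5% and 20.6% of all tested genes.

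The DSS difference of Ptgs2 was 2.18 log2 units smaller in KO mice than in WT mice (interaction -2.18 ± 0.62 SE, 95% confidence interval from -3.53 to -0.82). Its unadjusted p was 0.00454 and its adjusted p 0.449. None of the 8 genes passed the interaction test, 1 of them (Ptgs2) had an unadjusted p under 0.05, and of all tested genes 0.0769% passed and 5.45% had an unadjusted p under 0.05. The value rested on the KO DSS arrays: without KO DSS replicate 1 it was -3.00 (adjusted p = 0.0445), and without that array and WT DSS replicate 1, the 2 arrays with pancreatic transcripts, it was -2.92 (adjusted p = 0.0290). Without KO DSS replicate 2 it was -1.36 and did not pass, and over 16 alternatives the adjusted p ranged up to 0.9999.

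**Figure D2:**
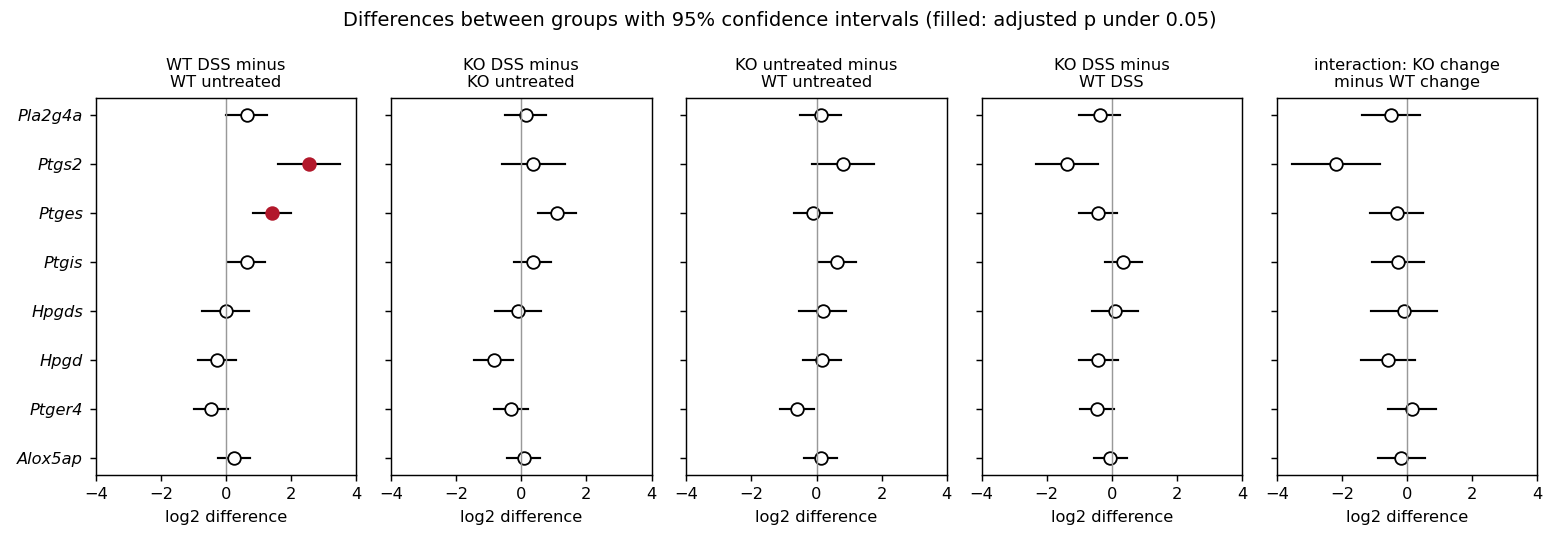
Log2 differences (horizontal axis) of the 8 tested genes in 4 pairwise comparisons and the interaction. Points are limma estimates, bars are 95% confidence intervals, and filled points passed an adjusted p of 0.05. Only Ptgs2 (2.55) and Ptges (1.41) are filled, both for DSS in WT mice, and the Ptgs2 interval for the interaction runs from -3.53 to -0.82.

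The first enzyme of the pathway, the cytosolic phospholipase A2 Pla2g4a, lay far above background on every array, between 10.90 and 12.07. Its signals were 11.63 and 12.07 on the WT DSS arrays, against 11.54 and 10.90 on the WT untreated arrays. The groups did not overlap, though the dimmer DSS array was close to the brighter untreated one. The difference of 0.63 ± 0.28 (SE) did not pass (adjusted p = 0.318). In KO mice the DSS arrays had 11.34 and 11.62, against 11.53 and 11.16 on the untreated arrays, and the difference was 0.13 ± 0.28 (adjusted p = 0.941).

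Ptgis, the prostacyclin synthase, which is best known from vessel walls and other stroma, was dim. It had 7.28 and 6.76 on the KO DSS arrays, 6.64 and 6.69 on the WT DSS arrays, 6.60 and 6.73 on the KO untreated arrays and 5.80 and 6.26 on the WT untreated arrays. Both KO DSS arrays lay above all others, and the 2 WT untreated arrays below all others, with 1 of them under background. WT DSS exceeded WT untreated by 0.63 ± 0.26 (adjusted p = 0.264) and untreated KO exceeded untreated WT by 0.63 ± 0.26 (adjusted p = 0.671). The KO DSS group exceeded KO untreated by 0.35 ± 0.26 (adjusted p = 0.768) and WT DSS by 0.36 ± 0.26 (adjusted p = 0.665). None of these passed.

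Hpgds, the hematopoietic prostaglandin D synthase, known from mast cells, T helper cells and tuft cells, lay above background on all arrays. It had 7.64 and 7.46 on the KO DSS arrays, 7.23 and 7.68 on the WT DSS arrays, 7.61 and 7.69 on the KO untreated arrays, and 7.995 and 6.93 on the WT untreated arrays. All 4 groups overlapped with another, and the WT untreated arrays held both the highest and the lowest value. In the 4 pairwise comparisons its differences lay between -0.11 and 0.19, and the 95% confidence interval for DSS in WT ran from -0.73 to 0.70.

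Hpgd, the dehydrogenase that takes the first step in inactivating prostaglandins and is abundant in colon epithelium, had a strong signal throughout. It had 15.41 and 16.02 on the KO DSS arrays, against 16.63 and 16.50 on the KO untreated arrays. Both DSS arrays lay below both untreated arrays. The difference of -0.85 ± 0.27 (SE) did not pass (unadjusted p = 0.0088, adjusted p = 0.264). In WT mice it had 15.92 and 16.34 with DSS, against 16.30 and 16.50 without, and these overlapped (-0.27 ± 0.27, adjusted p = 0.728). The averaged difference of -0.56 ± 0.19 did not pass either (adjusted p = 0.132), except without KO DSS replicate 2 (-0.71, adjusted p = 0.0407), and over 16 alternatives its adjusted p ran up to 0.372.

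Ptger4, the EP4 receptor through which prostaglandin E2 raises cAMP, was lowest in KO DSS mice and highest in untreated WT mice. Signals were 9.35 and 9.45 on the KO DSS arrays, 10.01 and 9.69 on the WT DSS arrays, 9.68 and 9.75 on the KO untreated arrays, and 10.50 and 10.12 on the WT untreated arrays. Groups did not overlap in any of the 4 pairwise comparisons, while WT DSS and KO untreated, the neighbours in the order, did. Untreated KO lay below untreated WT by -0.59 ± 0.24 (adjusted p = 0.640), KO DSS below WT DSS by -0.45 ± 0.24 (adjusted p = 0.549), WT DSS below WT untreated by -0.46 ± 0.24 (adjusted p = 0.405) and KO DSS below KO untreated by -0.31 ± 0.24 (adjusted p = 0.780). None passed, nor did the difference between genotypes averaged over treatments (-0.52 ± 0.17, unadjusted p = 0.00987, adjusted p = 0.230). In that averaged comparison none of the 8 genes passed, where 0.677% of all tested genes did, and 2 of 8 (Ptger4 and Ptgis) had an unadjusted p under 0.05, against 11% of all tested genes.

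The pair of genes that start leukotriene synthesis were dim. Alox5, the lipoxygenase that starts leukotriene synthesis, lay under background on all 8 arrays, between 4.23 and 4.83, and was not tested. Alox5ap, the membrane protein that hands arachidonic acid to Alox5, lay just above background on all arrays, between 6.31 and 6.74. Its pairwise differences lay between -0.05 and 0.25, and the 95% confidence interval for DSS in WT ran from -0.25 to 0.75.

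Over the 8 tested genes the median difference with DSS was 0.44 in WT mice and 0.11 in KO mice, where the median over all tested genes was -0.05 and -0.04. The median difference between KO and WT was 0.15 without DSS and -0.39 with DSS, against -0.03 and -0.02 over all tested genes. The comparisons share arrays, and the 8 genes are those that passed a filter on mean signal.

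A wider list of 62 further symbols of eicosanoid metabolism and signalling was described beside these. Of the 62, 55 had a row, 37 were tested, 22 lay above background on all 8 arrays and 23 on none. Those under background on every array included the lipoxygenases Alox15 and Alox8, the prostaglandin D synthase Ptgds, the prostaglandin E2 receptors Ptger1 and Ptger2, and the prostacyclin receptor Ptgir. With DSS in WT mice 1 of the 37 rose and 1 fell, where 2.91% of all tested genes rose and 1.12% fell, and in KO mice none rose and 1 fell, where 0.538% of all tested genes rose and 0.392% fell in KO mice. Between genotypes none of the 37 passed without DSS (0.392% of all tested genes) or with it (0.354%), and none passed the interaction (0.0769%). The median difference of the 37 was 0.07 for DSS in WT and -0.11 for DSS in KO.

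Pla2g5, a secreted phospholipase A2, was the one that rose. It had 8.24 and 8.27 on the WT DSS arrays, against 6.58 and 6.21 on the WT untreated arrays. The groups were well apart, and the difference was 1.86 ± 0.35 (SE, adjusted p = 0.0112). Without any 1 of the 4 WT arrays the adjusted p was between 0.0525 and 0.113, so the call needs all 4. In KO mice it had 7.14 and 8.39 with DSS, against 6.96 and 7.10 without. Here KO DSS replicate 2 was the bright array, where Ptgs2 was bright on replicate 1. The KO difference of 0.73 ± 0.35 did not pass (adjusted p = 0.564), except without the 2 arrays with pancreatic transcripts (1.36, adjusted p = 0.0431). Without KO DSS replicate 2 it was 0.10. Averaged over genotypes, Pla2g5 rose by 1.30 ± 0.25 (SE, adjusted p = 0.0096). In that average 1 of the 37 rose and 2 fell, where 3.47% of all tested genes rose and 2.05% fell.

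Dpep1, the brush border dipeptidase that converts leukotriene D4 to leukotriene E4 and also cleaves other peptides, fell in WT mice. It also fell in the average over genotypes (-1.30 ± 0.17, adjusted p = 0.000746). It had 13.97 and 13.67 on the WT DSS arrays, against 15.42 and 15.33 on the WT untreated arrays. The difference of -1.55 ± 0.24 (SE, adjusted p = 0.00323) kept its call in all 17 alternatives, with an adjusted p of at most 0.0445. KO mice showed 14.26 and 13.88 with DSS, against 15.14 and 15.10 without, with no overlap. That difference of -1.06 ± 0.24 did not pass (adjusted p = 0.0749), and it passed in 2 of 17 alternatives.

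Slco2a1, the prostaglandin transporter that carries prostaglandins into cells for breakdown, fell in KO mice. It had 5.62 and 6.04 on the KO DSS arrays, both under background, against 6.96 and 7.04 on the KO untreated arrays. The fitted difference was -1.17 ± 0.23 (SE, adjusted p = 0.0441), which rests on values under background. Set against the background of the DSS arrays, Slco2a1 was at least 1.83-fold lower, and this bound was not itself tested. The adjusted p was 0.0575 with replicate number as a block, and the call held in 6 of 17 alternatives, with an adjusted p up to 0.356. In WT mice it had 6.74 and 6.83 with DSS, against 6.34 and 6.49 without. The WT DSS arrays lay above the untreated ones, by 0.37 ± 0.23 on average (adjusted p = 0.518). Under DSS it was at least 1.57-fold lower in KO than in WT mice, and the fitted difference of -0.96 did not pass (adjusted p = 0.159). The interaction did not pass either (adjusted p = 0.249), and its size is not measured because the KO DSS level is only a bound.

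Pparg, a nuclear receptor of fatty acids and their oxidised products that is abundant in colonocytes, fell in the average over genotypes (-0.70 ± 0.17, adjusted p = 0.0308). It had 12.66 and 12.35 on the KO DSS arrays and 12.38 and 12.18 on the WT DSS arrays, against 13.08 and 13.00 on the KO untreated arrays and 12.99 and 13.29 on the WT untreated arrays. All 4 DSS arrays lay below all 4 untreated arrays. The averaged call held in 9 of 16 alternatives (adjusted p from 0.0175 to 0.138), and neither genotype passed alone (adjusted p = 0.503 in KO and 0.0714 in WT).

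**Figure D3:**
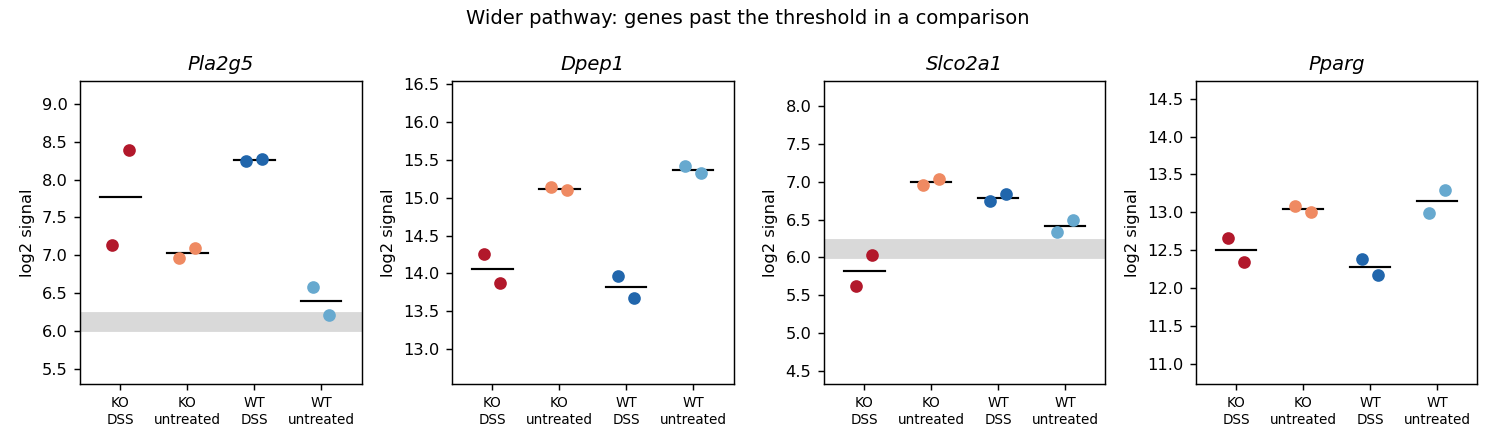
Log2 signal (vertical axis, each panel spanning 4 log2 units) of the 4 genes of the wider list that passed a comparison, on the 8 arrays by group. Points are arrays, black lines are group means and the grey band is the range of background. Slco2a1 is under background on both KO DSS arrays (5.62 and 6.04), Dpep1 is lower on all 4 DSS arrays, and the 2 KO DSS arrays of Pla2g5 lie at 7.14 and 8.39.

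Among the bright genes of the wider list that did not pass, Lta4h, which makes leukotriene B4, had 10.13 and 11.24 in KO DSS mice, against 12.25 and 11.52 in WT DSS mice (-1.20 ± 0.37, adjusted p = 0.314). Akr1c18, a steroid reductase also known to act on prostaglandins, had 9.12 and 7.59 in KO DSS mice, against 9.59 and 9.88 in WT DSS mice (-1.38 ± 0.44, adjusted p = 0.318). Cbr1, a carbonyl reductase that accepts prostaglandin E2, had 14.17 and 14.20 in KO DSS mice, against 13.52 and 13.55 in WT DSS mice (0.65 ± 0.23, adjusted p = 0.371). In each of these 3 the groups did not overlap. Of the 37 tested genes of the wider list, both KO DSS arrays lay below both WT DSS arrays in 8 and above them in 5. Of all tested genes, 18.8% lay below and 16.1% above, so these counts are near the share over all genes. The glutathione transferases Mgst2 and Mgst3, the phospholipase Pla2g10, the prostaglandin reductases Ptgr2 and Zadh2, the prostaglandin E synthases Ptges2 and Ptges3 and the epoxide hydrolase Ephx2 did not pass in any of the 7 comparisons. Pla2g4c, singled out after its values were seen, was at 9.61 on WT DSS replicate 1, the array with the strongest pancreatic signal, and between 4.26 and 5.39 on the other 7 arrays.

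Transcripts of some other cell types also rose with DSS, in the comparison in which Ptgs2, Ptges and Pla2g5 rose. The fibroblast list (9 genes with a row) had means of 10.60 and 9.64 on the KO DSS arrays and 9.62 and 10.32 on the WT DSS arrays, against 8.49 and 8.28 on the KO untreated arrays and 7.05 and 7.37 on the WT untreated arrays. In WT mice 7 of its 8 tested genes rose with DSS, and 4 of 8 in KO mice. Of all tested genes, 2.91% rose with DSS in WT and 0.538% in KO. The macrophage and monocyte list (9 genes) had means of 8.57 and 7.98 on the KO DSS arrays and 7.76 and 8.01 on the WT DSS arrays, against 6.88 and 6.58 on the KO untreated arrays and 5.87 and 6.01 on the WT untreated arrays, and 6 of its 8 tested genes rose in WT and 5 of 8 in KO. Endothelial markers rose in 6 of 9 genes in WT and in 3 of 9 in KO. On KO DSS replicate 1, where Ptgs2 was 8.14, the fibroblast, endothelial and macrophage means were at least as high as on the WT DSS arrays. On KO DSS replicate 2, where Ptgs2 was 6.50, these 3 means were 9.64, 8.15 and 7.98. They were 9.62, 7.86 and 7.76 on WT DSS replicate 1, and 10.32, 8.09 and 8.01 on WT DSS replicate 2. The smooth muscle list (10 genes) did not follow DSS in both genotypes, and none of its 10 genes passed for DSS in either. Its median difference with DSS was 0.78 in WT and -0.03 in KO. Its means were 12.82 and 11.03 on the KO DSS arrays, against 11.14 and 10.60 on the WT DSS arrays, and 11.82 and 12.09 on the KO untreated arrays, against 9.73 and 10.56 on the WT untreated arrays. Untreated KO exceeded untreated WT by a median of 1.89 over these genes, with 1 of 10 past the threshold. In that comparison the median was 1.33 for fibroblasts, 1.04 for endothelium and 0.72 for macrophages and monocytes. Each of these lists had 1 gene past the threshold, where 0.392% of all tested genes passed. The epithelial median was -0.09. In that same comparison Ptgs2, Ptgis and Hpgd lay higher on both KO arrays, and Ptger4 lay lower on both. Fewer cells of a type and less RNA per cell cannot be told apart in these samples, and the part of the other cell types in the differences was not tested.

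Defining markers of some cells that carry this pathway were near or under background. Of 9 tuft cell markers 7 were under background on all arrays, while Dclk1 (5.89 to 6.98) exceeded it on 7 arrays and Trpm5 on 1. Of 10 mast cell markers 9 were under background on all arrays, leaving only Kit (11.04 to 11.66). Of 9 neutrophil markers, S100a8 and S100a9 included, 8 were under background on all arrays, and Retnlg alone exceeded it, on 1 array.

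**Figure D4:**
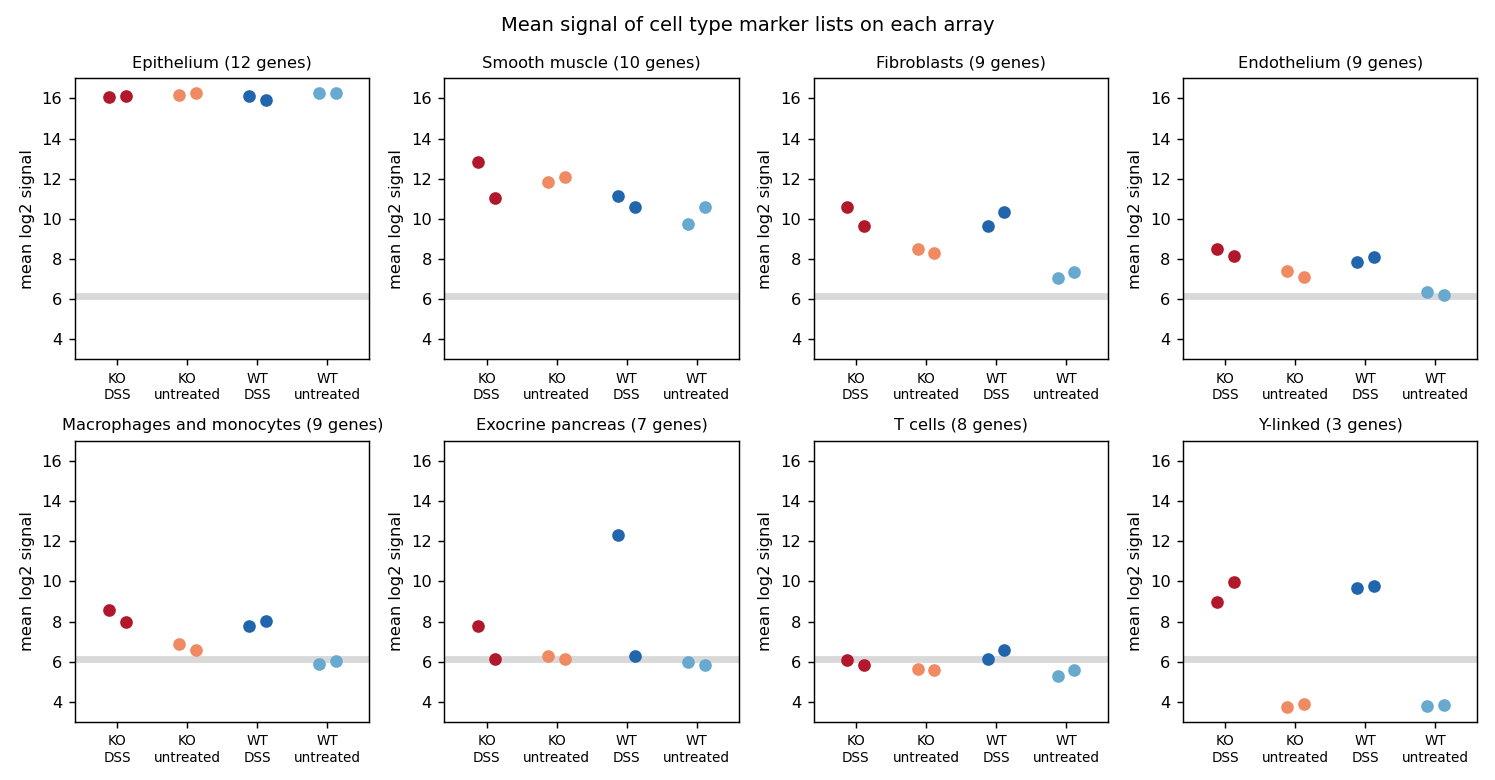
Mean log2 signal (vertical axis) of 8 marker lists on the 8 arrays, by group. Points are arrays, the grey band is the range of background, and the number of genes with a row is in each title. The epithelial mean stays between 15.92 and 16.29, the fibroblast, endothelial and macrophage means are higher on the DSS arrays, the pancreatic mean reaches 12.3 on WT DSS replicate 1, and the Y-linked mean separates all DSS arrays from all untreated ones.

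The tested genes whose signal followed Ptgs2 most closely over the 8 arrays were Cyp7b1 (Pearson r = 0.99), Tshz1 (0.96), Fbln7 (0.96), Apold1 (0.96) and Edil3 (0.95). Cyp7b1 and Fbln7 stayed at or under background, between 4.78 and 5.71 and between 5.61 and 6.13. Those that followed Ptges were Lrch1 (0.97), Rap1b (0.96), Hgf (0.95), Cd55 (0.95) and Rdx (0.95). These correlations describe 8 arrays in 4 groups and were taken as the highest of all tested genes.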

How the data were processed

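RNA of colon epithelial cells was measured on 8 Affymetrix arrays. The authors' log2 values were made with Affymetrix Expression Console, per the submitters' processing notes. Its normalization and background settings are not stated, and the values were used as deposited. The 28846 rows held 6640 controls and 19572 rows with 1 gene symbol. The row of highest mean was kept per gene. The lowest 33.3% of genes by mean (below 5.15) were left out. A model of 4 group means was fitted with limma 3.58.1 in R 4.3.3 (4 residual degrees of freedom, prior 7.27), with 7 two-sided contrasts. An exact permutation test of 2 arrays against 2 cannot go below p = 0.333 and is not given. The pipeline was tested on simulated data. Where every array of 1 group lay under background, a fold is given as a lower bound against that background. The genes and lists were chosen with earlier results of these data known. All 10 genes were named, with genes of the wider list that passed and up to 12 of highest mean signal, and the 5 genes most like each one that passed. The main fit did not pair arrays by replicate number, and the labels do not say whether same-numbered arrays belong together. Deviations of same-numbered arrays correlated between -0.25 and 0.28, which with 2 arrays a group cannot settle this. Alternatives covered filter, scaling, variance model, array weights, arrays in the fit, a replicate block, threshold and each array left out. The set without the 2 arrays with pancreatic transcripts was chosen after seeing the data.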

Additional observations from a re-analysis of the deposited data

Results flagged for a closer look

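Ptgs2 was higher on both KO arrays than on both WT arrays without DSS, and lower on both with DSS. The test of this change of direction, the interaction, gave -2.18 ± 0.62 (limma, unadjusted p = 0.00454, adjusted p = 0.449), which does not pass.

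Slco2a1 was lower on both KO DSS arrays than on both KO untreated arrays, while both WT DSS arrays were above both WT untreated arrays. Separately, both KO arrays lay above both WT arrays without DSS and below them with DSS. The fitted interaction was -1.55 (limma, adjusted p = 0.249), which does not pass either. Both KO DSS arrays were under background, so this fitted value is not a measured size.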

How the results depend on the processing

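Of 1084 values for single genes under the alternatives, 1017 kept their direction and side of the threshold, 28 lost a call, 13 gained one and 26 changed sign, none of them for a difference that had passed. The causes were not tested. Ptgs2 and Ptges were the genes of the pathway that rose with DSS in WT under every filter, scaling, variance model and threshold tried and with the replicate block. The replicate block changed no count by over 1.5 times (474 genes for DSS in WT and 102 in KO), and among calls of single genes it ended that of Slco2a1 (adjusted p = 0.0575). With 1 array left out, the count of pathway genes past the threshold was 1 to 2 for DSS in WT, 1 to 3 for DSS averaged, and 0 to 1 for KO against WT with DSS and for the interaction. Over all tested genes it was 215 to 716 for DSS in WT, 18 to 297 for DSS in KO, 3 to 132 for KO against WT untreated, 24 to 215 with DSS, 5 to 26 for the interaction, 396 to 1054 for DSS averaged and 28 to 362 for genotype averaged. In the same order, an adjusted p under 0.1 gave 799, 190, 78, 76, 16, 1087 and 195 genes. Quantile normalization gave 70 for DSS in KO, 22 for KO against WT untreated and 30 with DSS. Trend and robust moderation gave 70 and array weights 21 for KO against WT with DSS, and array weights gave 241 without DSS. Fits on the 4 arrays compared gave 14 for DSS in KO and 252 for KO against WT untreated. Without the 2 arrays with pancreatic transcripts the counts were 988 for DSS in WT, 252 for KO against WT untreated, 36 for the interaction and 185 for genotype averaged, with 1 pathway gene (Ptgs2, lower) for KO against WT with DSS and 1 for the interaction. In that fit Hpgds was 0.21 for DSS in WT and -0.22 for KO against WT with DSS, Ptgs2 -0.45 and Alox5ap -0.015 for DSS in KO, and Pla2g5 0.12 for KO against WT with DSS. With 1 array left out, signs changed for Hpgds (-0.54 to 0.52 for DSS in WT, -0.34 to 0.72 for KO against WT untreated, -0.13 to 0.32 with DSS, -0.62 to 0.44 for the interaction), Alox5ap (-0.037 to 0.19 for DSS in KO, -0.00057 to 0.25 and -0.14 to 0.045 for KO against WT without and with DSS), Pla2g4a (-0.048 to 0.32 for DSS in KO, -0.19 to 0.45 for KO against WT untreated), Ptges (-0.36 to 0.14 for KO against WT untreated), Ptger4 (-0.045 to 0.34 for the interaction), Ptgs2 (-0.45 to 1.19 for DSS in KO) and Pla2g5 (-1.12 to 0.14 for KO against WT with DSS). A group left with 1 array is assumed to vary like the others. Alox5, Ptgs1 and genes near background are beyond what these arrays resolve.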
